A study of Mus musculus with 10 samples.

Results

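The glia of the dorsal root ganglion (DRG) were followed through 29 genes of Schwann cells and satellite glia, chosen by their symbols among the 55414 genes of the count files. All 29 were found in the files and all 29 were among the 17490 genes with enough counts to be tested. RNA of whole ganglia from E18.5 mouse embryos was measured by bulk RNA-sequencing in 5 control and 5 *WD1* cKO embryos. Both groups carried 2 floxed alleles of *Dach1*, which encodes a transcription factor, and *WD1* cKO embryos also carried *Wnt1* Cre, whereas the controls were littermates without Cre. The floxed *Dach1* line was kept on a mixed C57Bl/6J and CD1 background. The *Wnt1* promoter drives Cre in the neural crest, which gives rise to both the sensory neurons and the glia of the ganglion, so that the allele was not recombined in neurons alone. In the labels the genotypes stand the other way round than the sample titles, and the titles were followed.

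Glia of the DRG descend from neural crest cells that keep the transcription factor Sox10. Satellite glia wrap the cell bodies of sensory neurons, take up glutamate and produce lipoproteins, while Schwann cells accompany the axons, depend on axonal neuregulin read by the Erbb2 and Erbb3 receptors, and pass from an immature stage through a promyelinating stage marked by Pou3f1 and Pou3f2 to a myelinating stage driven by Egr2. Myelination of the mouse peripheral nerve begins around birth.

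Library depth, as the sum of the counts, lay between 20465132 and 27528784 reads for control and between 19757596 and 34796562 reads for *WD1* cKO embryos. *Dach1* itself was at 37.9 ± 2.40 CPM (counts scaled to 1000000 per library, mean ± SD, n = 5) in control and at 20.0 ± 0.677 CPM (n = 5) in *WD1* cKO embryos, a log2 fold change of -0.92 (SE 0.05; edgeR quasi-likelihood test, adjusted p = 5.48e-06) with no overlap between the groups. The floxed part of *Dach1* is exon 2, and the counts are per gene, so reads from the other exons are included. By immunostaining, the study reported that Dach1 protein was extinguished in *WD1* cKO DRG by E18.5. Neurons and glia were both present in every library, with 12 neuronal markers summing to between 13064 and 16139 CPM, *Sox10* at no less than 78.0 CPM and *Fabp7* at no less than 181 CPM. The groups were not balanced for sex, since *Xist*, which is expressed from the inactive X chromosome of females, was at or above 958 CPM in 2 of 5 control and 4 of 5 *WD1* cKO libraries and below 5 CPM in the others. Control replicate 3 stood apart in markers of spinal cord neurons, with *Slc6a5* at 4.66 CPM and *Pax2* at 3.81 CPM where the other control libraries lay at or below 0.146 and 0.0882 CPM, while of the genes of mature oligodendrocytes *Opalin* had no read in any of the 10 libraries and *Mog* was at 1.68 to 3.30 CPM, highest in the same control library.

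No glia gene passed a test for a difference between *WD1* cKO and control DRG with the main settings, which took all 10 libraries and no block. Unadjusted p-values under other settings, among them a block for the replicate number, are given further below. With edgeR, 0 of 29 had an adjusted p under 0.05, against 7 of all genes tested (0.0400%), and 0 of 29 had an unadjusted p under 0.05, against 787 of all genes (4.50%). DESeq2 called 0 of 29 at either threshold, against 19 (0.109%) and 644 (3.68%) of all genes. At the looser cut-off used in the study, which asks for an unadjusted p under 0.005 and a log2 fold change of more than 0.15 in size, 0 of 29 genes passed and 67 of all genes did (0.383%). In 0 of 29 genes were the 5 libraries of one group all above the 5 of the other, which held for 186 of all genes (1.06%). The log2 fold change was above 0 in 23 of 29 glia genes and in 8771 of all genes (50.1%), and its median was 0.09 over the glia genes and 0.00022 over all genes. These 23 directions come from the same 10 libraries and are not independent of each other. The 6 connective tissue markers were also all above 0, with a median of 0.13, and 2 of them had an unadjusted edgeR p under 0.05 with no adjusted p under 0.05. With DESeq2, *Postn* passed the study's cut-off (log2 fold change 0.19, unadjusted p = 0.00359, adjusted p = 0.724), as did 78 of all genes. The summed level of the 6 markers was 3327 to 4539 CPM in control and 3850 to 4336 CPM in *WD1* cKO libraries, and their part in the glia levels was not tested. In whole ganglia, a change in the number of glial cells cannot be told apart from a change in RNA per cell.

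How closely a change could be bounded differed widely between the genes. The 95% interval of the log2 fold change lay within -0.5 and 0.5 for 17 of 29 genes and within -1 and 1 for 21. The within-group SD of log2 CPM had a median of 0.29 over the glia genes against 0.12 over all genes tested, and it exceeded the latter in 26 of 29.

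**Figure D1:**
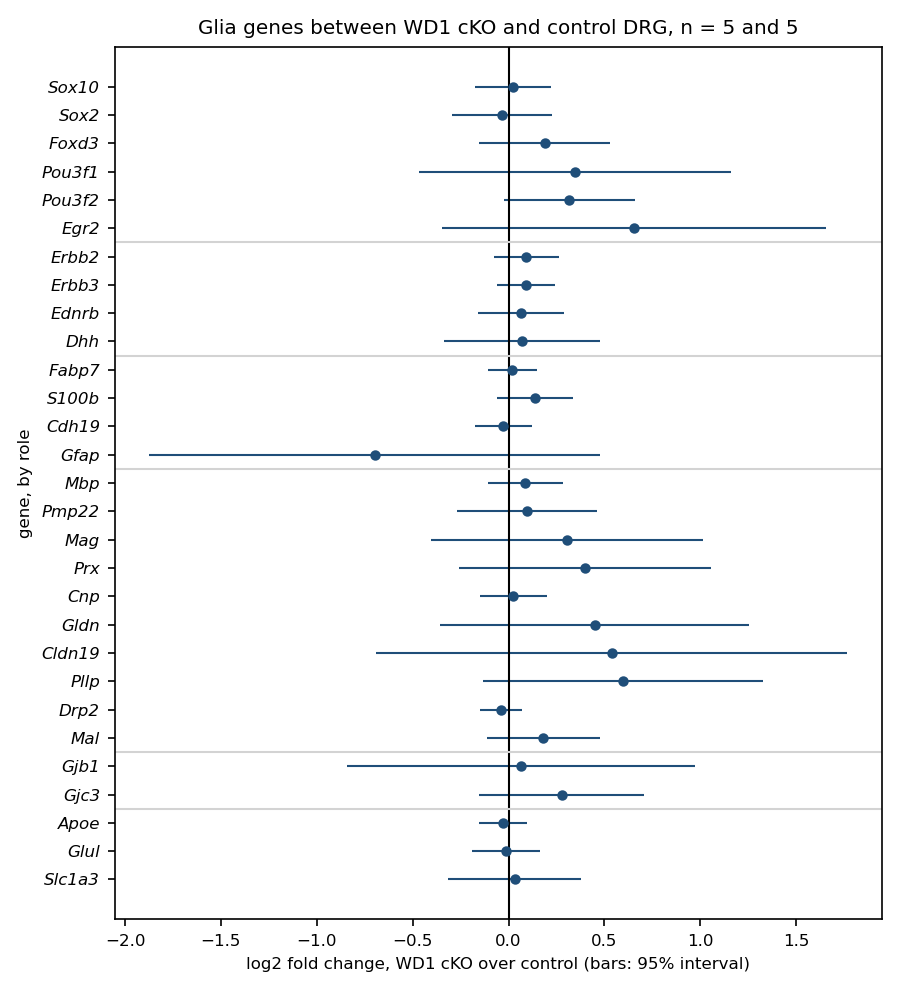
Log2 fold change of each of the 29 glia genes between *WD1* cKO and control DRG (x axis) from edgeR, with bars for the 95% interval, genes grouped by role from transcription factors at the top to satellite glia genes at the bottom. Every interval includes 0, with the narrow intervals at *Drp2*, *Fabp7* and *Apoe* and the wide ones at *Cldn19*, *Gfap* and *Egr2*.

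Levels between genes were compared as CPM per kilobase of exon (RPKM) in the 5 control libraries. *Apoe*, the lipoprotein component made by satellite glia, led at 358 ± 24.4 RPKM, followed by the fatty acid binding protein gene *Fabp7*, a marker of immature and satellite glia, at 160 ± 10.8 RPKM and by *Pmp22*, a component of compact myelin, at 127 ± 27.0 RPKM. *S100b* at 67.0 ± 8.64 RPKM and the endothelin receptor gene *Ednrb* at 64.9 ± 9.98 RPKM came next and did not differ beyond their spread. *Sox10* at 29.4 ± 3.84 RPKM and *Mbp*, the myelin basic protein gene, at 25.8 ± 1.22 RPKM likewise overlapped. The regulator *Egr2* was at 1.00 ± 0.572 RPKM and *Pou3f1* at 0.640 ± 0.174 RPKM. The lowest levels were those of the astrocyte and glial filament gene *Gfap* (0.480 ± 0.425 RPKM), of *Gldn*, which encodes the nodal organiser gliomedin (0.264 ± 0.132 RPKM), of the connexin gene *Gjb1* (0.251 ± 0.190 RPKM) and of the plasmolipin gene *Pllp* (0.245 ± 0.119 RPKM), whose ranges overlapped. *Gjb1* passed the count filter in exactly 5 libraries, with 4 to 19 reads per library. The exons of *Pllp* overlap those of a transcript on the opposite strand over 54.15% of their length, and because the strand setting of the counting is not given in the sources used here, its 6 to 27 reads per library are uncertain.

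**Figure D2:**
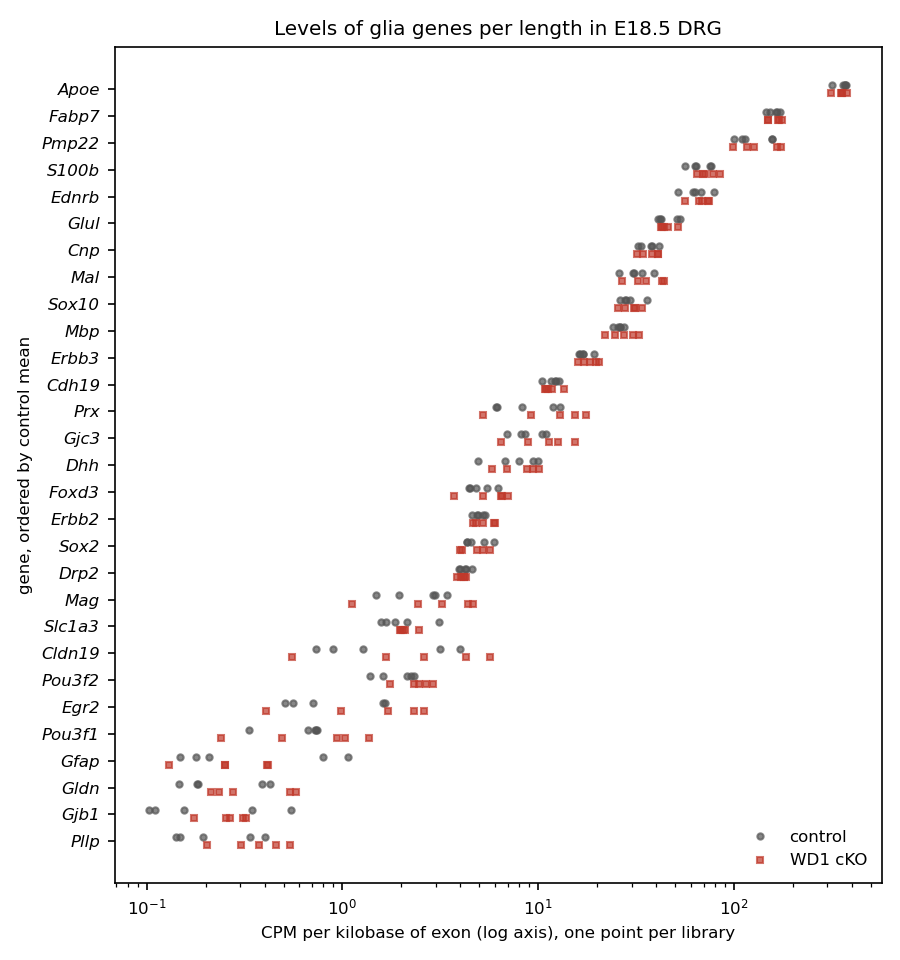
Level of each glia gene as CPM per kilobase of exon (x axis, log scale), 1 point per library, circles for control and squares for *WD1* cKO, genes ordered by the control mean. The levels run from *Apoe* at 358 RPKM down to *Pllp* at 0.245 RPKM, and the 2 groups overlap for every gene.

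Among the transcription factors, *Sox10*, which is required for the glial lineage, was at 89.6, 85.3, 110, 85.2 and 79.5 CPM in control replicates 1 to 5 and at 78.0, 103, 95.8, 94.6 and 84.7 CPM in *WD1* cKO replicates 1 to 5. The groups overlapped almost entirely, with means of 89.8 ± 11.7 and 91.3 ± 9.93 CPM and a log2 fold change of 0.02 (95% interval -0.17 to 0.22). *Sox2*, a factor of immature glia that holds back myelination, had a log2 fold change of -0.03 (-0.29 to 0.23), and *Foxd3*, a factor of neural crest and early glia, one of 0.19 (-0.16 to 0.53). Of the promyelinating POU factors, *Pou3f2* had the lowest p of all 29 genes, at 10.8 ± 2.30 CPM in control and 13.5 ± 2.43 CPM in *WD1* cKO embryos (log2 fold change 0.32, SE 0.16, unadjusted p = 0.0662 with edgeR and 0.0502 with DESeq2, adjusted p = 1 with both). It was at 8.97, 7.76, 12.5, 12.0 and 12.9 CPM in the control libraries and at 9.73, 13.8, 12.9, 16.2 and 14.9 CPM in the *WD1* cKO libraries, so that *WD1* cKO replicate 1 lay among the controls. *Pou3f1* was at 2.46 ± 0.672 and 3.13 ± 1.73 CPM, and its interval of -0.47 to 1.16 leaves room for changes in either direction. *Egr2*, the driver of the myelin genes, had the highest log2 fold change of the 29 (0.66, interval -0.34 to 1.66, unadjusted edgeR p = 0.179, exact permutation p = 0.333).

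The receptors were measured more tightly. *Erbb3*, the receptor subunit that binds neuregulin, was at 97.6, 98.1, 116, 102 and 102 CPM in control and at 95.7, 123, 111, 118 and 103 CPM in *WD1* cKO embryos, and its log2 fold change of 0.09 had an interval of -0.06 to 0.24. Without control replicate 3, its highest control, the value was 0.14. For *Erbb2*, the signalling partner of Erbb3, the value was also 0.09 (-0.08 to 0.26), and for *Ednrb* it was 0.07 (-0.16 to 0.29). *Dhh*, which encodes the Desert hedgehog signal sent by Schwann cells to the perineurium, had a log2 fold change of 0.07 (-0.34 to 0.48), and its exons overlap a transcript on the opposite strand over 25.16% of their length and those of *Rhebl1*, on the same strand, over 12.41%, so that its counts are uncertain.

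Of the immature glial markers, *Fabp7* was at 206, 208, 214, 181 and 192 CPM in control and at 220, 212, 209, 187 and 187 CPM in *WD1* cKO embryos. Its log2 fold change was 0.02 with an interval of -0.11 to 0.15. *S100b*, a calcium-binding protein gene of Schwann cells, had a log2 fold change of 0.14 (-0.06 to 0.34) and the cadherin gene *Cdh19*, a marker of Schwann cell precursors, one of -0.03 (-0.17 to 0.12). *Gfap* had the lowest value of the 29, -0.70 (-1.87 to 0.48), and here 2 libraries decided it. *Gfap* was at 0.878, 0.750, 4.52, 0.626 and 3.34 CPM in control and at 0.548, 1.06, 1.06, 1.73 and 1.76 CPM in *WD1* cKO embryos, so that control replicates 3 and 5 lay above all the others. Without control replicate 3, the library with the spinal cord markers, the log2 fold change was -0.17, and without control replicate 5 it was -0.43. The part of spinal cord RNA in the *Gfap* level was not tested.

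The 10 myelin and node genes varied widely from library to library. Their summed level spanned 713 to 974 CPM over the control and 683 to 1118 CPM over the *WD1* cKO libraries, and their within-group SD of log2 CPM had a median of 0.45. *Mbp* was at 223, 204, 216, 232 and 221 CPM in control and at 186, 231, 209, 277 and 260 CPM in *WD1* cKO embryos. Its log2 fold change was 0.09 (-0.11 to 0.28), and the *WD1* cKO libraries lay both below and above the controls. *Cnp*, encoding a myelin enzyme, and *Drp2*, a component of the dystroglycan complex of the Schwann cell membrane, were steady, with log2 fold changes of 0.03 (-0.15 to 0.20) and -0.04 (-0.15 to 0.07). *Pmp22* at 0.10 (-0.27 to 0.46) and the proteolipid gene *Mal* at 0.18 (-0.11 to 0.48) were intermediate. For *Prx*, which encodes the periaxin of myelinating Schwann cells, the log2 fold change was 0.40 (-0.26 to 1.06), for *Mag*, the myelin-associated glycoprotein gene, 0.31 (-0.40 to 1.02), for *Gldn* 0.45 (-0.36 to 1.25), for *Pllp* 0.60 (-0.13 to 1.33), and for *Cldn19*, the claudin gene of Schwann cell tight junctions, 0.54 (-0.69 to 1.77). Of the connexin genes, *Gjc3* had a value of 0.28 (-0.15 to 0.71) and *Gjb1* one of 0.07 (-0.84 to 0.98).

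The satellite glia genes had fold changes close to 0. *Apoe* was at 775, 674, 799, 790 and 791 CPM in control and at 673, 749, 758, 764 and 809 CPM in *WD1* cKO embryos, and the single lowest library of each group lay close to the other. The log2 fold change of *Apoe* was -0.03, with an interval of -0.15 to 0.10. *Glul*, encoding glutamine synthetase, had a log2 fold change of -0.01 (-0.19 to 0.16) and *Slc1a3*, encoding the glutamate transporter GLAST, one of 0.03 (-0.31 to 0.38). *Slc1a3* was highest in control replicate 3, at 26.5 CPM, whereas the remaining controls lay between 13.5 and 18.1 CPM. Without that library its log2 fold change was 0.22 with an unadjusted edgeR p of 0.0418 and an adjusted p of 1, and the part of spinal cord RNA, in which this gene is also abundant, was not tested.

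The sum over the 29 glia genes was at 2481 to 2881 CPM in control and at 2450 to 3109 CPM in *WD1* cKO libraries. Divided by the summed neuronal markers, this gave 0.163 to 0.213 in control and 0.162 to 0.208 in *WD1* cKO embryos, and the 2 ranges coincided. A single library weighed on the count of small p-values. *WD1* cKO replicate 1 was the lowest of the 10 libraries for 14 of 29 genes. The same count over all genes is not given here. Without this library 7 glia genes had an unadjusted edgeR p under 0.05, as did 917 of all genes (5.28%). They were *Foxd3*, *Pou3f2*, *Egr2*, *Prx*, *Pllp*, *Mal* and *Gjc3*, all higher in *WD1* cKO embryos, with 0.917 as the lowest adjusted p. Without control replicate 3 there were 2 such genes, *Pou3f2* and *Slc1a3* (4.54% of all genes), and without control replicates 2 or 5 there was 1 in each case, *Pllp* (4.24% of all genes) and *Pou3f2* (5.55%). With the level of *Xist* as a covariate there were 0 of 29 (3.59% of all genes).

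Several genes of the myelin program differed widely between libraries of the same genotype. The genes given next were chosen after their values were seen. *Cldn19* was at 3.80, 3.13, 5.46, 16.9 and 13.4 CPM in control replicates 1 to 5 and at 2.36, 11.2, 7.09, 24.1 and 18.3 CPM in *WD1* cKO replicates 1 to 5, a range of 10.2-fold. Libraries numbered 4 and 5 were above those numbered 1 to 3 in both groups. *Egr2* was at 1.90, 1.72, 2.40, 5.59 and 5.46 CPM in control and at 1.39, 5.81, 3.34, 8.84 and 7.88 CPM in *WD1* cKO embryos, and within each group replicates 4 and 5 were again the highest.

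*Prx* was at 34.3, 34.1, 46.3, 72.5 and 66.2 CPM in control and at 29.0, 71.8, 51.2, 98.0 and 85.8 CPM in *WD1* cKO embryos. *Pmp22* was at 269, 236, 258, 370 and 367 CPM in control and at 233, 297, 275, 389 and 410 CPM in *WD1* cKO embryos. The mean of replicates 4 and 5 over that of replicates 1 to 3 was 3.67 in control and 3.09 in *WD1* cKO embryos for *Cldn19*, 2.75 and 2.38 for *Egr2*, 2.40 and 2.31 for *Gldn*, 1.81 in both for *Prx*, 1.48 and 1.99 for *Mag*, 1.45 and 1.49 for *Pmp22*, 1.47 and 1.36 for *Dhh* and 1.24 and 1.19 for *S100b*. It was above 1 in both groups for 16 of 29 glia genes, against 5733 of all 17490 genes tested (32.8%). It was below 1 in both for 7 (*Sox10*, *Sox2*, *Erbb2*, *Ednrb*, *Fabp7*, *Gjb1* and *Slc1a3*), against 6138 of all 17490 genes. It was 0.824 and 0.768 for *Sox2*, 0.890 and 0.875 for *Fabp7*, and close to 1 for *Gjb1*, at 0.991 and 0.969. For *Mbp* it was 1.06 and 1.28, for *Cnp* 1.14 and 1.17 and for *Drp2* 0.963 and 1.05.

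In 5 of 29 glia genes, all 4 libraries numbered 4 or 5 were above all 6 numbered 1 to 3 (*Dhh*, *S100b*, *Pmp22*, *Gldn* and *Cldn19*), and the same held for 1068 of all genes tested (6.11%). In 2 of 29 they were all below (*Sox2* and *Fabp7*), as in 886 of all genes (5.07%). *WD1* cKO replicate 4 was the highest of the 10 libraries for 7 of the 10 myelin and node genes and *WD1* cKO replicate 1 the lowest for 6. The same counts over all genes are not given here. The labels do not say what the replicate numbers stand for, and this division of the libraries was noticed in the values and was not tested. It did not follow *Xist*, which was high in control replicate 5 and *WD1* cKO replicates 4 and 5 and low in control replicate 4. The sum of the 5 red blood cell markers was lower in the libraries numbered 4 and 5. It was at 2464, 1633, 1071, 155 and 183 CPM in control replicates 1 to 5. In *WD1* cKO replicates 1 to 5 it was at 1134, 699, 509, 243 and 189 CPM. For 4 of the 5 markers, all libraries numbered 4 or 5 were below all the others. The exception was *Hba-a2*, at 1.98 CPM in control replicate 2 against 7.14 and 7.39 CPM in control replicates 4 and 5. The part of red blood cell RNA in the glia levels was not tested. The melanocyte gene *Tyrp1* was at 64.3 and 88.9 CPM in control replicates 4 and 5 and at 85.9 and 72.9 CPM in the *WD1* cKO ones, against 31.2 to 41.7 CPM in replicates 1 to 3 of both groups. Of the other 5 melanocyte markers, *Mlana*, *Tyr* and *Dct* were near 0, each with a mean at or below 0.0613 CPM in both groups, while *Pmel* had means of 0.816 and 0.739 CPM and *Mitf* of 2.76 and 2.83 CPM in control and *WD1* cKO embryos.

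**Figure D3:**
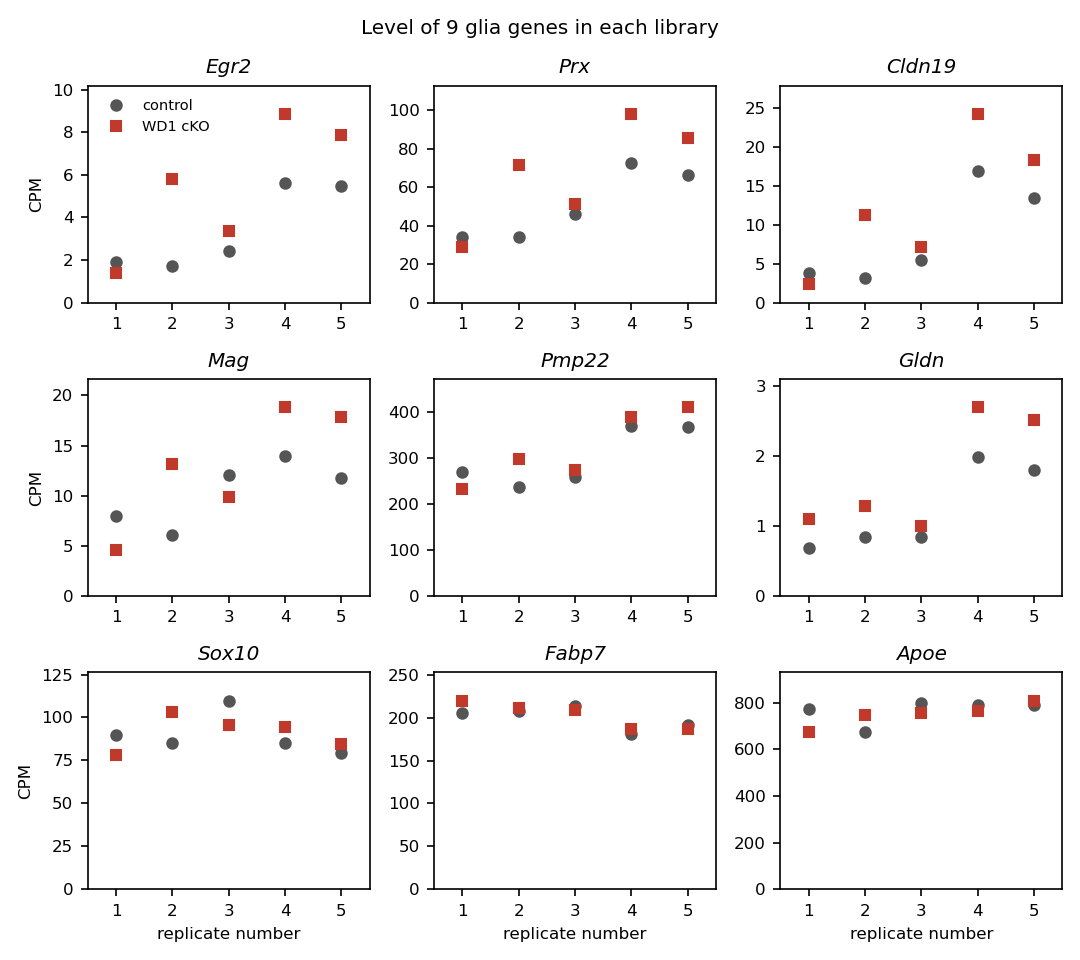
CPM (y axis, from 0) of 9 glia genes against the replicate number of the sample title (x axis), circles for control and squares for *WD1* cKO, 1 point per library. In *Egr2*, *Prx*, *Cldn19*, *Pmp22* and *Gldn* the libraries numbered 4 and 5 lie high in both groups, with *Cldn19* between 13.4 and 24.1 CPM there, whereas *Sox10* and *Apoe* stay level.

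**Figure D4:**
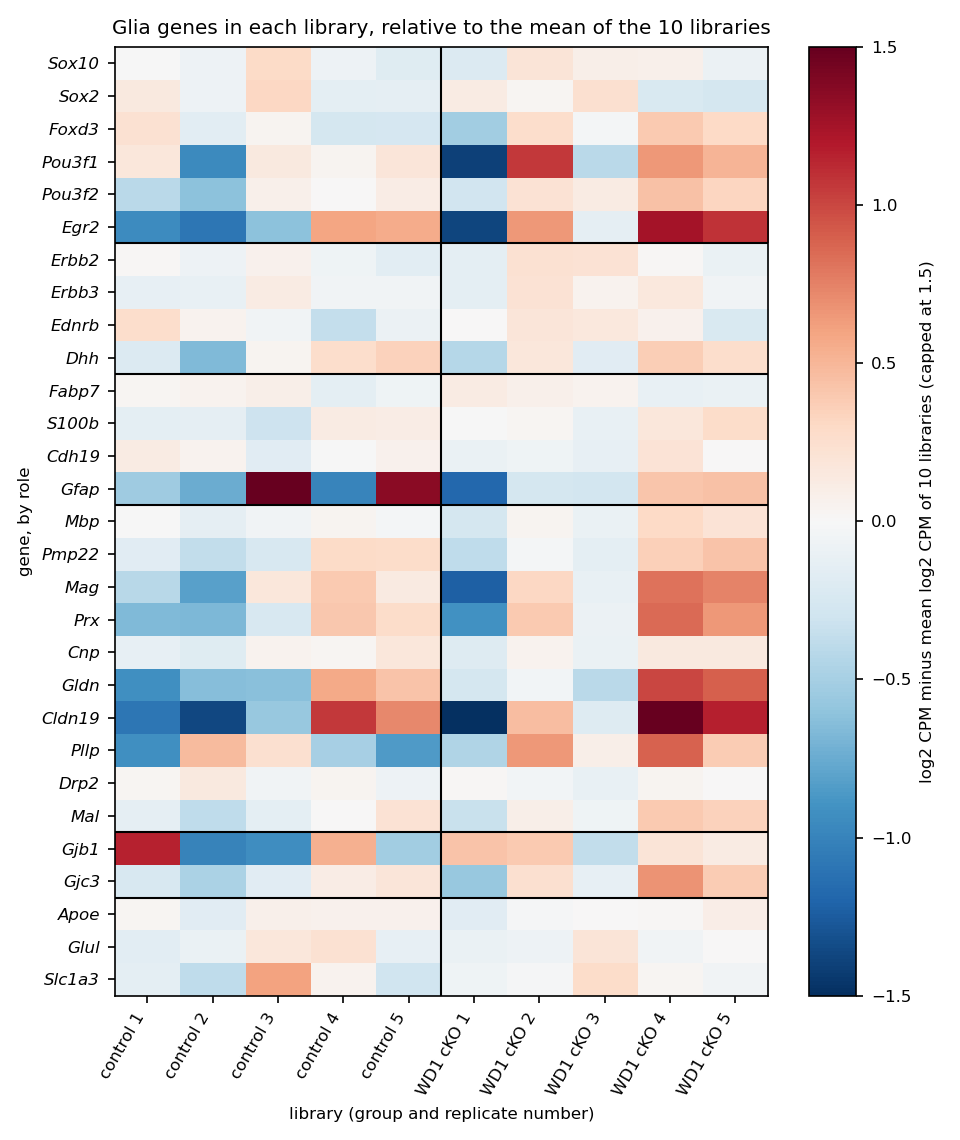
Log2 CPM of each of the 29 glia genes (rows, by role) in each of the 10 libraries (columns), relative to the mean of the 10, red for above and blue for below, colours capped at 1.5. Most myelin genes and *Egr2* are blue in *WD1* cKO replicate 1 and red in *WD1* cKO replicates 4 and 5, and the 2 genotypes do not separate as blocks.

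The 250 bases before the transcription starts of the glia genes were searched on both strands for short binding motifs of the factors above. RefSeq windows of GRCm38.p6 were used, which held 23 of the 29 genes. Whether the genes share a regulator was not tested. The EGR motif GTGGGCG was in 7.02% of all 32851 windows and in 4 of the 38 windows of the glia genes. The SOX motifs ACAAAG and ACAATG were in 25.2% of all windows and in 7 of these 38. The windows of the 2 genes with the highest ratio of replicates 4 and 5 over 1 to 3 among the 5 genes that separated those numbers fully are given here, 5′ to 3′, with the EGR motif in capitals. *Cldn19* lies on the plus strand at chr4:119255191-119255440 and *Gldn* on the plus strand at chr9:54286236-54286485, the former (1 of 2 *Cldn19* windows) with 1 EGR motif and the latter with no match to any of the 3 motifs.
Cldn19: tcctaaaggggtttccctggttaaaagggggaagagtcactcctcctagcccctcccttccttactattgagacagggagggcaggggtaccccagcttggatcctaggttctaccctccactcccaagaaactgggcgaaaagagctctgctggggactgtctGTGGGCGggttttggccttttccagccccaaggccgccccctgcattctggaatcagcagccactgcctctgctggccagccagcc
Gldn: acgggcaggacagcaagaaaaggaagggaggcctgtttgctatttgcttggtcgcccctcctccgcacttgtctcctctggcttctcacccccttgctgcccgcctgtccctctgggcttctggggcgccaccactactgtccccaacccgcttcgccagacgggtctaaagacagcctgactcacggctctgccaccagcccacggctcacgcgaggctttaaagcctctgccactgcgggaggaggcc
A match of letters describes the window and does not show a site in use.

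The lists of other glia genes and of axonal signals were compared between the genotypes in the same fit. Of 65 such genes tested, 0 had an adjusted p under 0.05 and 4 an unadjusted p under 0.05 with edgeR, 2 higher and 2 lower in *WD1* cKO embryos, where 4.50% of all genes did. DESeq2 gave 0 and 2, where 3.68% of all genes had an unadjusted p under 0.05. The median log2 fold change was 0.03, with 38 of 65 above 0, against 50.1% of all genes. In the list of other Schwann and myelin genes, *Mpzl1* was at 125 ± 2.44 CPM in control and 130 ± 1.48 CPM in *WD1* cKO embryos. In whole ganglia this level cannot be assigned to glia. All 5 *WD1* cKO libraries were above all 5 controls (log2 fold change 0.06, unadjusted edgeR p = 0.0497, adjusted p = 1, exact two-sided permutation p = 0.00794, the smallest this design allows). Such a lack of overlap held for 2 of the 65 genes, against 186 of all genes (1.06%). *Mpzl1* was named for its unadjusted p in this same fit, so its permutation p is not separate support.

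Of the other lineage regulators, *Id2*, an inhibitor of basic helix-loop-helix factors, was at 42.2 ± 2.21 and 47.9 ± 4.67 CPM (log2 fold change 0.19, unadjusted edgeR p = 0.016, adjusted p = 1, exact permutation p = 0.0556). *Ngfr*, the p75 neurotrophin receptor gene of both glia and neurons, was at 1222 ± 28.6 and 1150 ± 38.2 CPM (-0.09, unadjusted edgeR p = 0.0277, adjusted p = 1, exact permutation p = 0.0159), with 4 of 5 *WD1* cKO libraries below all controls. *Sox9* was low in both groups, at 2.08 ± 0.759 and 2.29 ± 0.458 CPM. Of the other satellite glia genes, the potassium channel gene *Kcnj10* was at 38.9 ± 4.54 and 40.3 ± 5.16 CPM (0.05, interval -0.16 to 0.25), and the connexin 43 gene *Gja1* at 141 ± 29.1 and 144 ± 32.0 CPM (0.03, -0.32 to 0.38). Of the axonal signals, *Nrg1*, the neuregulin read by Erbb2 and Erbb3, was at 103 ± 9.56 and 108 ± 6.81 CPM (0.06, -0.08 to 0.20). The neuregulin receptor gene *Erbb4* was at 5.22, 4.54, 4.38, 4.23 and 4.22 CPM in control and at 4.21, 3.46, 3.68, 3.46 and 4.16 CPM in *WD1* cKO embryos. The 5 *WD1* cKO libraries were thus all below the controls, by a narrow gap, with a log2 fold change of -0.25 (SE 0.10, unadjusted edgeR p = 0.0271, adjusted p = 1, exact two-sided permutation p = 0.00794). *Erbb4* was the other of the 2 genes of these lists without overlap, where 1.06% of all genes had none, and was likewise named for its unadjusted p.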

How the data were processed

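The deposited values are raw counts of reads per gene, which the authors obtained from stranded mRNA libraries of E18.5 DRG with STAR 2.7.8a (alignment to GRCm39) and featureCounts 2.0.1, with no normalization. The strand setting and the handling of reads shared between genes are not given in the sources used here. Nothing says which embryos shared a litter or whether ganglia were pooled, so that p-values measure the spread between these libraries. No 2 libraries of a group agreed within sampling noise (chi-square over its degrees of freedom 4.33 to 15.7), and each was 1 replicate.

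Counts were analysed in R 4.3.3. Genes reaching 10 counts in 5 or more libraries were scaled by TMM and compared with edgeR 4.0.16 (quasi-likelihood test, no block, Benjamini-Hochberg adjustment over 17490 genes). DESeq2 1.42.0 was the alternative test. Permutation tests were exact and two-sided, on log2 CPM computed with 1 as prior count, and cannot go below 0.00794. CPM scale the effective total of each library to 1000000. Symbols (52133 of 55414 identifiers matched), exonic lengths and overlaps came from the GENCODE M21 annotation of GRCm38, and promoter windows from RefSeq on GRCm38.p6, a different build from that of the counts. On simulated data with 17309 genes for the *WD1* cKO against control comparison, edgeR recovered 15, 26, 40 and 49 of 50 genes changed by 0.3, 0.5, 1 and 2 on the log2 scale, with 10 false calls. The changed genes were drawn at random from all genes tested. The median within-group SD of log2 CPM was 0.12 over those and 0.29 over the glia genes, so these counts do not give the recovery of the glia genes.

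The genes and lists were chosen with earlier results of these data known. All 29 glia genes were named. Other glia genes were named where they had an unadjusted p under 0.05, together with *Sox9*, *Nrg1*, *Kcnj10* and *Gja1*. Some genes of this rule are not reported here. The marker lists covered sensory neurons, spinal cord, melanocytes, connective tissue, endothelium, macrophages, red blood cells and muscle. From them, totals, genes near 0 or apart in 1 library, and genes that weighed most in a total were given. *Postn* was added because it passed the study's cut-off with DESeq2. The analysis was repeated with DESeq2's size factors, no filter, the replicate number as a block, a prior count of 0.25, scaling on other glia or on neuronal genes, each library left out in turn and, added after the values were seen, the level of *Xist* as a covariate.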

Additional observations from a re-analysis of the deposited data

Results flagged for a closer look

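A library far from the other 4 of its group (Dixon's gap ratio above 0.710) was found 14 times among 96 sets of 5 libraries. Chance gives about 4.8 for independent sets. These sets share the same libraries, and several are of spinal cord genes with few or no reads in most libraries. A gene with reads in a single library of its group always passes the ratio, as did *Nkx2-2* in control replicate 2. The 14 can therefore not be weighed against 4.8, and no excess is drawn from it. Among the glia genes, *Pou3f1* was low in control replicate 2, at 1.28 CPM against 2.58 to 2.86 CPM, and *Apoe* was low in the same library, at 674 CPM against 775 to 799 CPM. *Erbb3* was high in control replicate 3, at 116 CPM against 97.6 to 102 CPM. *Slc1a3* was high in *WD1* cKO replicate 3, at 21.1 CPM against 16.8 to 17.8 CPM, and so was *Gja1*, at 200.0 CPM against 118 to 137 CPM.

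The other 9 concern spinal cord markers. In control replicate 3, *Slc6a5* was at 4.66 CPM (others 0 to 0.146), *Pax2* at 3.81 CPM (0 to 0.0882), *Slc32a1* at 3.30 CPM (0 to 0.0441), *Lhx1* at 3.15 CPM (0 to 0.0488), *Olig1* at 2.68 CPM (0.0368 to 0.220) and *Olig2* at 0.800 CPM (0 to 0.220). In *WD1* cKO replicate 3, *Slc6a5* was at 0.364 CPM (0 to 0.102) and *Slc32a1* at 0.298 CPM (0.0380 to 0.0866). *Nkx2-2* was at 0.0882 CPM in control replicate 2 and at 0 in the other controls.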

How the results depend on the processing

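The count of glia genes with an adjusted p under 0.05 and that past the study's cut-off stayed at 0 of 29 under every alternative run, and the median log2 fold change stayed between 0.03 (scaled on other glia genes, where the median of all genes was -0.055) and 0.16 (without *WD1* cKO replicate 1). Between 19 and 25 genes were above 0. The count with an unadjusted edgeR p under 0.05, which was 0, became 1 without the filter (*Pou3f2*; 4.03% of all genes), 1 when scaled on neuronal genes (*S100b*; 3.30%) and between 0 and 7 when a library was left out (3.70% to 5.55%).

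With the replicate number as a block, 6 genes had an unadjusted edgeR p under 0.05 (*Pou3f2*, *Egr2*, *S100b*, *Prx*, *Gldn* and *Cldn19*), as did 1241 of all genes (7.10%), with 0.340 as the lowest adjusted p of a glia gene. The deviations of same-numbered libraries correlated with r of 0.329, 0.0404, 0.320, 0.354 and 0.390 for numbers 1 to 5. Correlations with other numbers ran from -0.368 to 0.371. Libraries numbered 1, 3 and 5 matched their own number best in both directions. Neither library numbered 2 did, and control replicate 4 had its highest r, 0.371, with another number. Since not every pair correlated and no source says what the numbers stand for, the libraries were not taken as pairs. Over all genes, 8 had an adjusted p under 0.05 with the block and 7 without.

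Of 430 fold changes of single glia genes under alternatives, 401 kept their direction. 18 genes never changed it, and 11 did when a library was left out. Their lowest and highest values were -0.025 and 0.11 for *Sox10*, -0.11 and 0.045 for *Sox2*, -0.0067 and 0.15 for *Ednrb*, -0.058 and 0.17 for *Dhh*, -0.014 and 0.048 for *Fabp7*, -0.011 and 0.19 for *Pmp22*, -0.016 and 0.075 for *Cnp*, -0.13 and 0.19 for *Gjb1*, -0.072 and 0.0075 for *Apoe*, -0.067 and 0.047 for *Glul*, and -0.051 and 0.22 for *Slc1a3*. With *Xist* as a covariate, *Sox2* was at 0.023 and *Glul* at 0.025. The cause was not tested. *Gjb1* left the tested set in the 5 fits without a library that carried it past the filter. Exact permutation p-values kept their side of 0.05 with the other prior count.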

Other observations

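Summed markers of further cell types overlapped between the groups. They ranged from 230 to 277 CPM in control and from 223 to 272 CPM in *WD1* cKO libraries for endothelium, from 44.5 to 50.1 and from 43.2 to 53.2 CPM for macrophages, from 19.9 to 142 and from 40.1 to 86.8 CPM for muscle, from 35.0 to 92.9 and from 36.6 to 89.9 CPM for melanocytes, and from 14.0 to 35.8 and from 12.9 to 20.8 CPM for spinal cord. Within the spinal cord total, *Aqp4* alone lay at 11.2 to 17.6 CPM in control and at 10.4 to 17.9 CPM in *WD1* cKO libraries. Within the melanocyte total, *Tyrp1* alone lay at 31.2 to 88.9 and at 33.1 to 85.9 CPM. Both totals thus rested largely on a single gene, except for the spinal cord total of control replicate 3.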
